A study of Homo sapiens with 3 samples.

Results

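The genes described here encode the enzymes of glycolysis, of the step that turns pyruvate into lactate or acetyl-CoA, and of glycogen storage and release. All 36 listed genes were found among the 19775 genes of the array, each through probe sets annotated to that gene alone, 76 probe sets in total, and each gene was represented by its brightest probe set. Expression was measured on 3 Affymetrix arrays, and the cultures came from H9, an established line of human embryonic stem cells. RA astrocytes were taken at day 210 after retinoic acid, a caudalising morphogen, from day 10 to day 21, and FGF8 astrocytes at day 210 after FGF8, a signal of rostral organisers, over the same days. Neuroepithelial cells, an early neural progenitor stage, were taken at day 17 and had received neither morphogen. All cultures began as embryoid bodies made after removal from mouse embryonic fibroblasts. Each group is 1 array, which limits the precision: the differences are given with no replicate check, p-value or standard error.

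Glycolysis splits glucose into pyruvate and runs in the cytoplasm without oxygen. Astrocytes are the main glycogen store of the brain and are known for strong glycolysis and for releasing lactate that neurons can take up. Rapidly dividing progenitors also run glycolysis at a high rate, with lactate as a major product. Pyruvate dehydrogenase kinases close the gate from pyruvate to the mitochondrial cycle, and pyruvate dehydrogenase phosphatases open it.

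Signals are intensities after quantile normalization, and a value below the floor of 26.4, the median signal once control probe sets were removed, was not counted as measured. Of the 36 genes, 33 lay above the floor on all 3 arrays. PYGM, the muscle glycogen phosphorylase, and FBP1, the gluconeogenic fructose bisphosphatase of liver, lay at or below the floor on all 3 arrays and have no difference. PDK4, a pyruvate dehydrogenase kinase induced by fasting, had a signal of 2.44 in RA astrocytes, 37.9 in FGF8 astrocytes and 27.5 in neuroepithelial cells, so it was at most weakly measured anywhere.

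The labelled cell types were checked against marker genes. All 10 astrocyte markers were above the floor on both astrocyte arrays, with a summed signal of 49755 in RA and 42988 in FGF8 astrocytes and 8999 in neuroepithelial cells. GFAP, the astrocyte intermediate filament, had a signal of 14574 in RA astrocytes, 3053 in FGF8 astrocytes and one below the floor in neuroepithelial cells, while ALDH1L1, a folate enzyme of astrocytes, was close to the floor on each array at 45.5, 43.4 and 38.0. All 8 neuroepithelial markers were above the floor on the neuroepithelial array and 6 on each astrocyte array, with sums of 8623 in RA and 11838 in FGF8 astrocytes and 24038 in neuroepithelial cells. SOX2, which was within 2-fold, supplied most of both astrocyte sums, at 7281 in RA and 9242 in FGF8 astrocytes against 6962 in neuroepithelial cells. Against neuroepithelial cells 7 of the 8 were at least 2-fold lower for RA (median -5.44) and 6 for FGF8 (median -3.67). Oligodendrocyte markers summed to 1129 in RA astrocytes, 6477 in FGF8 astrocytes and 390.5 in neuroepithelial cells, with PDGFRA alone at 794, 5997 and 173. Of those 7 markers 6, 3 and 4 were above the floor in the same order. Summed signals of 10 mitotic genes were 1473 in RA astrocytes, 8995 in FGF8 astrocytes and 16829 in neuroepithelial cells. Among 12 neuronal markers 10 were above the floor on each astrocyte array and 12 on the neuroepithelial array, with sums of 24591, 21815 and 17533. The sums are dominated by a few bright genes: against neuroepithelial cells 3 of the 12 were higher and 6 lower past 2-fold for RA (median -0.96), and 4 were higher and 3 lower for FGF8 (median 0.10). GAP43, a growth cone protein, was 13.1-fold higher in RA astrocytes, and STMN2, a tubulin regulator of young neurons, 20.6-fold lower. Endoderm markers summed to 110.3 in RA astrocytes, 117.7 in FGF8 astrocytes and 3971 in neuroepithelial cells, and muscle and mesenchymal markers to 6452, 475.3 and 16953. In RA astrocytes the latter sum came mostly from ACTA2 at 4087 and TAGLN at 2047, with COL1A1 and COL3A1 below the floor on both astrocyte arrays. Of 7 microglial markers 1 was above the floor in RA astrocytes, 1 in FGF8 astrocytes and 0 in neuroepithelial cells. In such bulk cultures fewer cells of a type and less RNA per cell cannot be told apart, and the part of these cell mixtures in the results below was not tested.

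**Figure D1:**
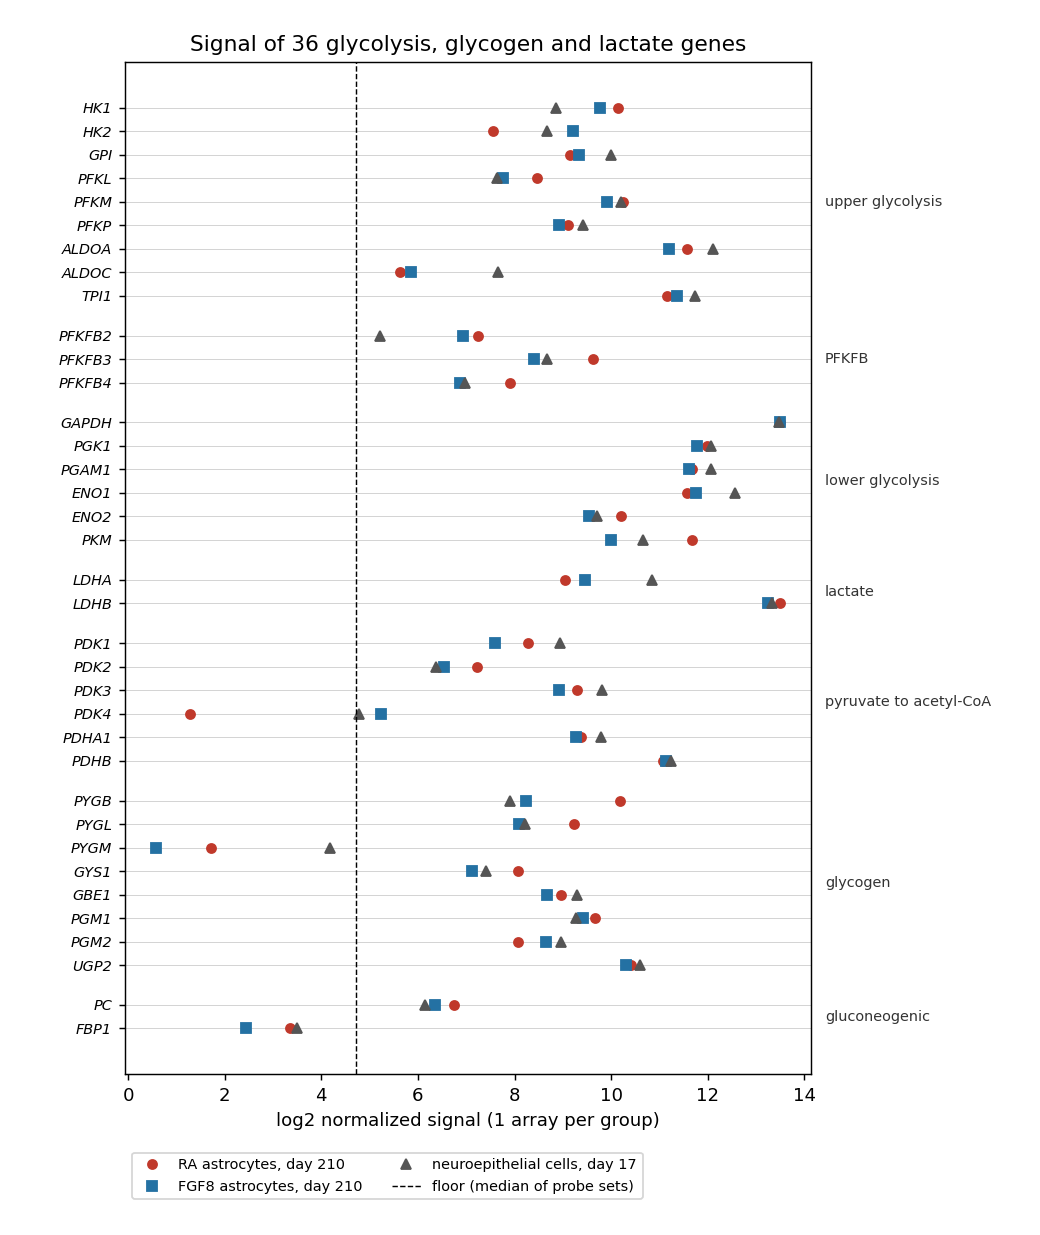
Log2 normalized signal (horizontal axis) of the 36 genes in rows grouped by role, with 1 point each for the RA astrocyte, FGF8 astrocyte and neuroepithelial arrays and the floor as a dashed line. PYGM and FBP1 lie left of the floor on all 3 arrays, and ALDOC, ENO1 and LDHA have both astrocyte points left of the neuroepithelial point.

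Setting RA astrocytes against neuroepithelial cells asks how this enzyme set differs between a caudally specified astrocyte culture and the early progenitor. PYGB, the brain glycogen phosphorylase, was 4.87-fold higher in RA astrocytes. LDHA, the lactate dehydrogenase subunit that favours lactate, was 3.45-fold lower, and ALDOC, the brain aldolase, 4.08-fold lower. By a limit of 2-fold, 5 of 34 enzymes were higher (PYGB, PFKFB2, HK1, PYGL and PKM) and 4 were lower (ALDOC, LDHA, HK2 and ENO1). The background over all 13558 genes was 18.4% higher and 14.9% lower by that limit, so the 26.5% of these enzymes past 2-fold stand against 33.2% of all genes. The median log2 difference of the 34 genes was -0.08, against 0.07 over all genes, and it turned positive with the deposited values and with equal array medians, while quantile normalization of the compared arrays alone left it negative.

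Setting FGF8 astrocytes against the neuroepithelial cells, which uses the same neuroepithelial array, had 1 gene at least 2-fold higher (PFKFB2) and 3 at least 2-fold lower (ALDOC, LDHA and PDK1) of 34. Over all 13204 genes 12.9% were at least 2-fold higher and 10.4% lower, so 11.8% of these enzymes stand against 23.3% of all genes past 2-fold. Their median log2 difference was -0.28, against 0.05 over all genes. Setting the array medians equal instead moved the median of all genes to 0.35 for RA and 0.43 for FGF8 astrocytes, and the median of these enzymes to 0.49 and 0.25. Relative to all genes, the enzymes' median was thus 0.15 lower for RA in the normalization used here and 0.13 higher with equal medians. For FGF8 it was 0.33 lower and 0.18 lower. Directions of moderate single-gene differences from the neuroepithelial array carry that uncertainty.

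**Figure D2:**
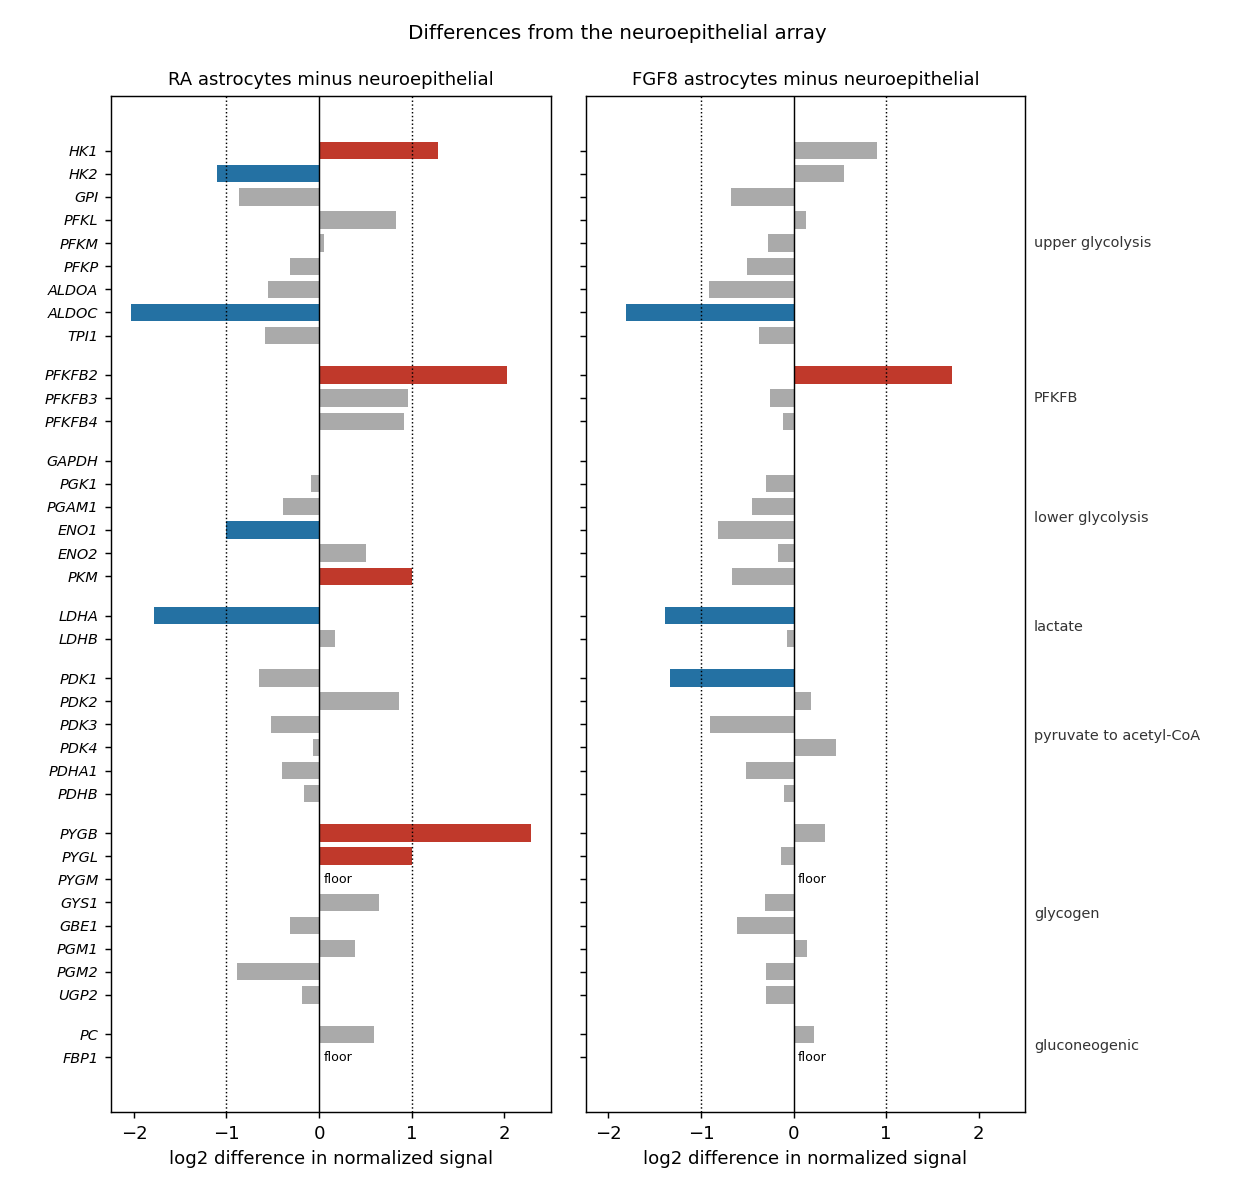
Log2 difference in normalized signal for each gene, RA astrocytes minus neuroepithelial cells on the left and FGF8 astrocytes minus neuroepithelial cells on the right, with dotted lines at 2-fold and colour for genes past them. ALDOC and LDHA pass the lower line and PFKFB2 the upper line in both panels, and PYGB, HK1, PYGL and PKM pass the upper line in the left panel.

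The first steps trap and split glucose. HK1, the hexokinase of most brain cells, had a signal of 1131 in RA astrocytes, 870.3 in FGF8 astrocytes and 464.3 in neuroepithelial cells, a 2.44-fold and a 1.87-fold higher level. It was past 2-fold for RA under all 9 alternative settings of normalization, floor and probe set. HK1 has 1 probe set and lay well above each floor, so only the changes of normalization could move it. Its log2 difference was 1.34 with the deposited values, 1.75 with equal array medians and 1.28 with quantile normalization of the compared arrays. HK2, the inducible hexokinase of growing cells, had signals of 188.4, 589.5 and 405.2 in the same order, 2.15-fold lower in RA astrocytes and 1.45-fold higher in FGF8 astrocytes. A dimmer HK2 probe set, with signals of 66.5, 55.5 and 36.6, went the other way for RA, 1.82-fold higher. Another, below the floor in RA astrocytes, went the same way as the brightest at -0.56, and the mean of all HK2 probe sets gave a log2 difference of -0.47. HK1 and HK2 therefore differed from neuroepithelial cells in opposite directions in RA astrocytes on their brightest probe sets.

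ALDOC had signals of 49.6 in RA astrocytes, 57.6 in FGF8 astrocytes and 202.6 in neuroepithelial cells. This was 4.08-fold lower in RA and 3.52-fold lower in FGF8 astrocytes, on the single probe set of a gene otherwise used as a marker of mature astrocytes. ALDOA, the ubiquitous aldolase, had signals of 3021, 2353 and 4422, within 2-fold at -0.55 and -0.91 log2 units, and its other 2 probe sets were past 2-fold for FGF8, at -1.03 and -1.24. GPI, which interconverts the hexose phosphates, was -0.86 for RA and -0.67 for FGF8, and TPI1, which interconverts the triose phosphates, -0.59 and -0.37. Among phosphofructokinases, which catalyse the committed step, the liver type PFKL was 0.83 for RA and 0.13 for FGF8, the muscle type PFKM 0.05 and -0.27, and the platelet type PFKP -0.32 and -0.50. A second PFKL probe set gave 1.02 for RA, past 2-fold, and -0.05 for FGF8. Of the 9 genes of this stage, 1 was higher and 2 were lower past 2-fold in RA astrocytes, and 0 were higher and 1 was lower in FGF8 astrocytes. In either direction that is 33.3% for RA and 11.1% for FGF8, against 33.2% and 23.3% of all genes.

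PFKFB enzymes make and remove a regulatory fructose bisphosphate, distinct from the glycolytic intermediate, that activates phosphofructokinase. PFKFB2, the form known from heart, had signals of 152.1 in RA astrocytes, 121.9 in FGF8 astrocytes and 37.2 in neuroepithelial cells, 4.09-fold and 3.28-fold higher. Its neuroepithelial value is only just above the floor. With the floor at the 70th percentile the log2 differences were 0.67 and 0.35, and a second probe set above the floor gave -0.21 and 0.46. For RA minus FGF8 astrocytes that second probe set, at 28.5 against 45.3, gave -0.67, opposite to 0.32 on the brightest. PFKFB3, the strongly activating form that supports glycolysis in dividing and hypoxic cells, had signals of 790.8, 339.4 and 404.9, or 0.97 and -0.25 log2 units. PFKFB4 had signals of 239.0, 117.0 and 126.2, or 0.92 and -0.11 log2 units. Both lay just inside 2-fold for RA.

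In the second stage, which harvests ATP, GAPDH had signals of 11450, 11491 and 11354, a log2 difference of 0.01 for RA and 0.02 for FGF8 astrocytes. Its other probe sets gave -0.24 and -0.25 for RA and -0.27 and -0.32 for FGF8. Before quantile normalization the brightest one read 13880 in RA, 10362 in FGF8 astrocytes and 10077 in neuroepithelial cells. The deposited control probe sets of GAPDH differed by position along the transcript. At the 3' end they read 12884 in RA, 9913 in FGF8 astrocytes and 10256 in neuroepithelial cells, in the middle 9579, 7672 and 9604, and at the 5' end 7182, 5995 and 10424. The 3' to 5' ratio was 1.79 and 1.65 in the astrocyte arrays and 0.984 in the neuroepithelial array. For ACTB, the beta-actin control, it was 6.67 and 6.63 in the RA and FGF8 arrays and 1.33 in the neuroepithelial array. This ratio, which climbs when RNA is shortened or copied incompletely, moved with both comparisons against the neuroepithelial array, and its part in them was not tested.

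ENO1, the ubiquitous enolase, had signals of 3016 in RA astrocytes, 3444 in FGF8 astrocytes and 6056 in neuroepithelial cells, 2.01-fold and 1.76-fold lower. Another bright ENO1 probe set, with signals of 1037, 1147 and 4575, was 4.41-fold and 3.99-fold lower, and a dim one 3.12-fold and 2.35-fold lower. With array medians set equal the brightest probe set gave -0.32 and -0.21. ENO2, the neuronal enolase, was 0.51 for RA and -0.17 for FGF8. PKM, the pyruvate kinase of brain and of growing cells, had signals of 3246, 1021 and 1616, 2.01-fold higher in RA and 1.58-fold lower in FGF8 astrocytes. A second, dimmer PKM probe set, with signals of 68.6, 75.8 and 87.2, was -0.35 and -0.20, so its direction for RA is opposite. The annotation used here does not separate the splice forms of PKM. PGK1, which makes the first ATP, was -0.09 and -0.30, and PGAM1, the mutase before enolase, -0.39 and -0.45. PGK1 has 5 other probe sets. A dim one, below the floor on both astrocyte arrays, was at -1.17 log2 units or below in each, and the others lay between -0.67 and 0.35 for RA and between -0.93 and 0.35 for FGF8.

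Lactate dehydrogenase is a tetramer of A and B subunits. LDHA had signals of 530.9 in RA astrocytes, 698.0 in FGF8 astrocytes and 1830 in neuroepithelial cells, 3.45-fold and 2.62-fold lower. LDHB, the subunit favouring lactate use, had signals of 11529, 9718 and 10241, or 0.17 and -0.08 log2 units, and its second probe set gave -0.33 and -0.24. On the brightest probe sets the A subunit was thus below its neuroepithelial level on both astrocyte arrays. The B subunit was slightly above its own level for RA and slightly below it for FGF8. The call for LDHA held for RA under all 8 alternative settings that gave a value, while for FGF8 it was -0.82 with equal array medians. LDHA has 1 probe set and lay well above each floor, so only the changes of normalization could move these values.

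The gate from pyruvate to acetyl-CoA was mostly within 2-fold. PDK1, a kinase that closes the gate and is induced by hypoxia, had signals of 311.0 in RA astrocytes, 194.3 in FGF8 astrocytes and 488.7 in neuroepithelial cells, 1.57-fold and 2.52-fold lower. The brain kinase PDK2 was 0.86 for RA and 0.18 for FGF8, and PDK3 -0.52 and -0.90. Of the other 4 PDK3 probe sets, 1 was past 2-fold for RA, at -1.01. The dehydrogenase subunits PDHA1 and PDHB were -0.41 and -0.16 for RA and -0.52 and -0.11 for FGF8. In the other pyruvate list, PDP1, the phosphatase that opposes the kinases, had signals of 8630 in RA astrocytes, 5707 in FGF8 astrocytes and 917 in neuroepithelial cells, 9.41-fold and 6.22-fold higher. MPC1, a subunit of the mitochondrial pyruvate carrier, was 2.34-fold and 2.25-fold higher, and ME1, the cytosolic malic enzyme, at least 6.66-fold lower in both. Of 11 genes of that list compared, 2 were higher and 1 was lower for RA and 2 were higher and 2 lower for FGF8. That is 27.3% and 36.4% of the list, beside 33.2% and 23.3% of all genes past 2-fold.

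Glycogen genes included the highest difference of the set. PYGB, whose product releases glucose phosphate from brain glycogen, had signals of 1164 in RA astrocytes, 302.7 in FGF8 astrocytes and 238.9 in neuroepithelial cells, 4.87-fold and 1.27-fold higher. PYGL, the liver isozyme, had signals of 597.7, 270.9 and 297.5, 2.01-fold higher in RA and 1.10-fold lower in FGF8 astrocytes. Both phosphorylases were thus highest on the RA array. PYGB has only 1 other probe set, which was barely above the floor in RA astrocytes at 28.5 and below it at 1.19 and 6.37 elsewhere. GYS1, the glycogen synthase outside liver, was 0.65 for RA and -0.31 for FGF8, and the branching enzyme GBE1 -0.32 and -0.61. PGM1 and PGM2, which interconvert glucose phosphates, were 0.39 and -0.88 for RA and 0.15 and -0.29 for FGF8, and UGP2, which makes the activated glucose for synthesis, -0.18 and -0.30. The other 2 PGM2 probe sets were past 2-fold for RA, at -1.53 and -1.44, and 1 of them for FGF8, at -1.06. A second, dim UGP2 probe set was -1.13 for RA and -0.39 for FGF8. Pyruvate carboxylase PC, an astrocyte enzyme that replenishes the mitochondrial cycle, was 0.60 and 0.22.

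Other glycogen genes were compared as a list. Of 14 compared for RA, 3 were at least 2-fold higher and 0 lower, with a median of 0.39, and of 13 for FGF8, 1 was higher and 0 lower, with a median of 0.29. The shares past 2-fold were 21.4% for RA and 7.69% for FGF8, against 33.2% and 23.3% of all genes. PPP1R3C, which brings the protein phosphatase to glycogen and promotes its synthesis in astrocytes, had signals of 151.1 in RA astrocytes, 177.9 in FGF8 astrocytes and 46.2 in neuroepithelial cells, 3.27-fold and 3.86-fold higher. Its relative PPP1R3B was 4.25-fold and 1.98-fold higher, and the lysosomal glucosidase GAA 2.49-fold and 1.52-fold higher. Of 3 transporter genes compared, 2 were at least 2-fold lower on each astrocyte array. Among all genes 14.9% were that much lower for RA and 10.4% for FGF8. SLC2A1, the glucose carrier of the blood-brain barrier and astrocytes, was 2.72-fold lower in RA and 5.97-fold lower in FGF8 astrocytes, and the neuronal type SLC2A3 3.88-fold and 7.99-fold lower.

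The comparison of RA with FGF8 astrocytes asks whether the morphogen given months earlier went with a different enzyme set at the same age. Past 2-fold, 5 of the 34 genes were higher in RA astrocytes (PYGB, PKM, PFKFB3, PYGL and PFKFB4) and 1 was lower (HK2). Among all 13157 genes 9.8% were at least 2-fold higher and 7.87% lower. The 17.6% of these enzymes past 2-fold is therefore the background share, 17.7%. In all, 24 of the 34 genes lay above 0 and 10, or 29.4%, below it, against 49.2% of all genes below it. Their median was 0.27 against 0.01 over all genes. That median was 0.34 with the deposited values and 0.29 with equal array medians.

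The phosphorylases PYGB and PYGL, the pyruvate kinase PKM, and PFKFB3 and PFKFB4 had the largest positive differences. PYGB had a signal of 1164 in RA against 302.7 in FGF8 astrocytes, 3.85-fold higher, and PYGL was 2.21-fold higher. PKM was 3.18-fold higher on its main probe set, at 3246 against 1021, and -0.14 on its second. The mean of both PKM probe sets gave 0.76, and 0.33 against neuroepithelial cells, so neither call held on it. PFKFB3 was 2.33-fold higher and PFKFB4 2.04-fold higher. PFKFB4 was at 0.97 with equal array medians and at 0.46 with the mean of its probe sets, whereas PFKFB3 and PYGL stayed past 2-fold under each alternative that gave a value. PFKFB3 and PYGL have 1 probe set each and lay well above each floor, so only the changes of normalization could move them. GYS1 followed just below 2-fold at 0.95. Next came PFKL, ENO2, PDK1 and PDK2, between 0.68 and 0.70. The second PFKL probe set, at 375.5 against 179.0, was past 2-fold at 1.07. At the other end HK2 had 188.4 in RA against 589.5 in FGF8 astrocytes, 3.13-fold lower, but -0.94 with the mean of its probe sets. PGM2 was -0.59 and LDHA -0.39. GYG2, a glycogenin that primes glycogen, was 3.05-fold higher in RA astrocytes. EGLN3, an oxygen-sensing hydroxylase induced by hypoxia, was 5.12-fold higher, at 146.6 against 28.6, and was the only one of 12 hypoxia target genes past 2-fold in this comparison. The 10 mitotic genes were all at least 2-fold lower in RA than in FGF8 astrocytes, with a median of -2.81, and their part in these differences was not tested.

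**Figure D3:**
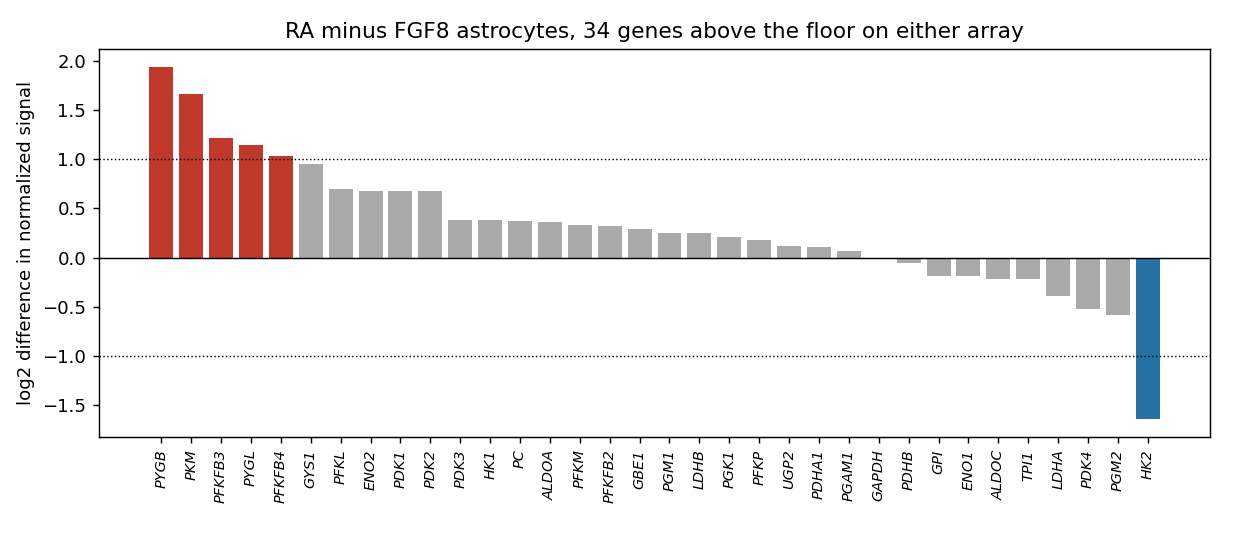
Log2 difference in normalized signal, RA minus FGF8 astrocytes, for the 34 genes above the floor on either array, in order of size, with dotted lines at 2-fold. The 5 genes past the upper line start with PYGB and PKM, and HK2 is the only gene past the lower line.

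**Figure D4:**
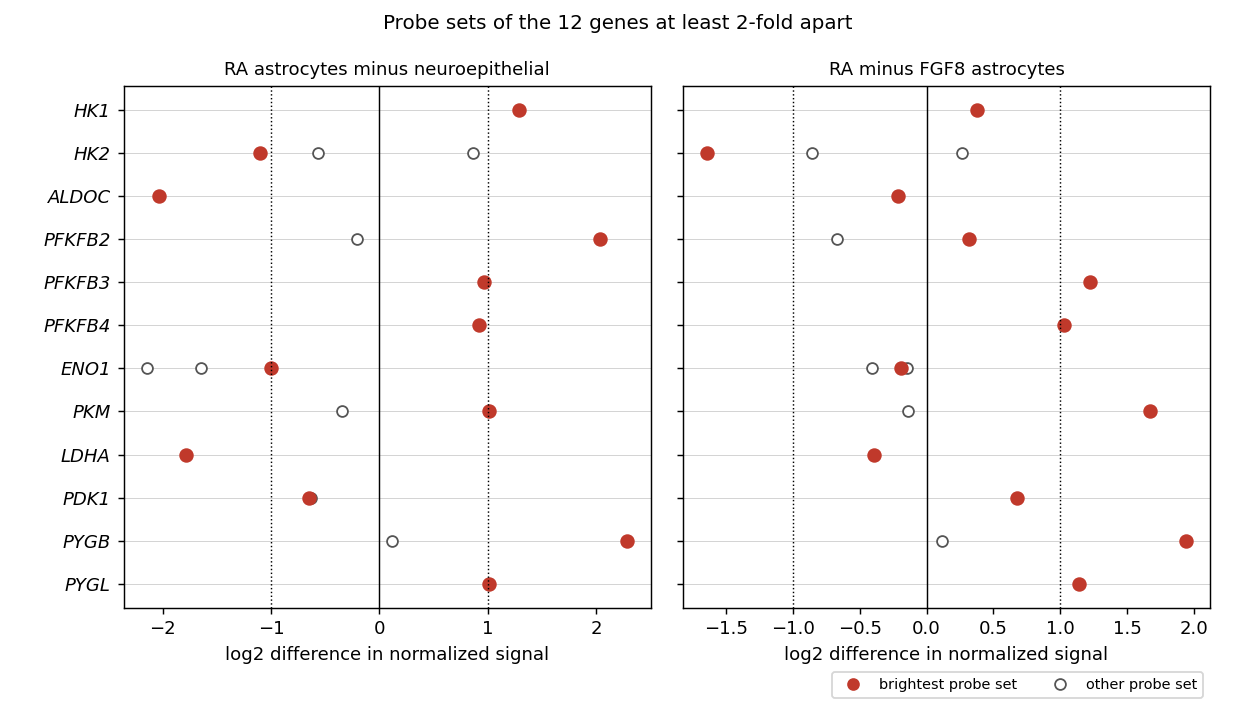
Log2 differences on every probe set above the floor on at least 1 of the compared arrays, for the 12 genes at least 2-fold apart in any comparison; filled points are the brightest probe set used in the text and open points the others. ENO1 probe sets lie on 1 side of 0, while HK2, PKM and PFKFB2 have an open point on the opposite side for RA astrocytes minus neuroepithelial cells.

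Several members carry the core of the hypoxia response element in their promoters, which is how many glycolytic genes are known to be induced. RefSeq promoter windows (GRCh38.p14) were found for 34 of the 36 genes. The motif ACGTG, searched on both strands and overlapping the E-box CACGTG that MYC family factors bind, lay in the 250 bases before the start in 24 of 63 windows of these genes, or 38.1%, against 18.5% of 35116 windows of all genes. At least 1 window held it for 21 of the 34 genes, or 61.8%, against 21.7% of all genes with a window. The 34 genes have 63 windows and the 27305 genes 35116, so these enzymes have more windows per gene, which raises the second share. The sets were not matched for base composition, and some windows of a gene overlap, as for PFKM. The part of either in these shares was not tested. As examples with and without the motif, windows of 3 genes lower on both astrocyte arrays and of the genes furthest above FGF8 in RA astrocytes are shown, 5′ to 3′ on the gene's strand, with matches in capitals.
LDHA (chr11:18394313-18394562, plus strand): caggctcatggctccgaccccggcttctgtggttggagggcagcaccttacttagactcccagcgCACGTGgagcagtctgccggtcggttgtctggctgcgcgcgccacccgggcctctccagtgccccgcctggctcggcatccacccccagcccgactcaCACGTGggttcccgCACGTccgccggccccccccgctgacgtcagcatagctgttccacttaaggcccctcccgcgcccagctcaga
ALDOC (chr17:28576896-28577145, minus strand): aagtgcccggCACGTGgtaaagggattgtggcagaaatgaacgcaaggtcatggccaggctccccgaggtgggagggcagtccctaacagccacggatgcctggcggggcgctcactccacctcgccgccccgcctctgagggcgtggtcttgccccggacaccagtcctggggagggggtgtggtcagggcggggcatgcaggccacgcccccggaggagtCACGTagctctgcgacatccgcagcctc
ENO1 (chr1:8878687-8878936, minus strand): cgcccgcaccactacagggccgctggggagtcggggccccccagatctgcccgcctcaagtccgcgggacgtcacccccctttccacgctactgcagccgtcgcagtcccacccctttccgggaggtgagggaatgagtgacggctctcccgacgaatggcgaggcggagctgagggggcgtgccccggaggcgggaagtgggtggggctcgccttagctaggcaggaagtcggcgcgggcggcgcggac
PYGB (chr20:25247835-25248084, plus strand): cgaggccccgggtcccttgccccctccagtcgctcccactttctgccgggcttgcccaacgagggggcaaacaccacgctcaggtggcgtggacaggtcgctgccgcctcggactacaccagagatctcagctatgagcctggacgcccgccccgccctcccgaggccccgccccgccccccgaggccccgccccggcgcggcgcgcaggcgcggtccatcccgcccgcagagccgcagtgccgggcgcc
PKM (chr15:72231191-72231440, minus strand): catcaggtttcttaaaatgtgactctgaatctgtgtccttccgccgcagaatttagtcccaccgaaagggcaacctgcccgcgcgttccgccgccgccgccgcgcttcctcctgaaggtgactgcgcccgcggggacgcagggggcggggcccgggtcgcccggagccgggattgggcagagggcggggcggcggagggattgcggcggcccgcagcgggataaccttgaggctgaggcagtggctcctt
The LDHA window, the first of 2 for that gene, held 3 separate sites and the ALDOC window 2, while the ENO1, PYGB and PKM windows held 0. Of the other genes past 2-fold in any comparison, HK2, PDK1 and PFKFB3 each have a window with the motif, HK1, PFKFB4 and PYGL have none in their windows, and PFKFB2 has no window. Genes that were higher and genes that were lower are thus found both with and without the motif. A match is a description of these letters. Among 12 hypoxia target genes outside the set, 1 was higher and 3 were lower past 2-fold for RA, and 0 were higher and 4 lower for FGF8 against neuroepithelial cells. That is 33.3% in each comparison, against 33.2% of all genes for RA and 23.3% for FGF8. For RA 8 of the 12 lay above 0, with a median of 0.43, and for FGF8 6 did, with a median of 0.01. The share below 0 was 33.3% for RA and 50% for FGF8, against 46.7% and 47.0% of all genes. EGLN3 was 2.95-fold higher in RA and 1.73-fold lower in FGF8 astrocytes than in neuroepithelial cells. DDIT4, a growth inhibitor induced by hypoxia and stress, was 4.10-fold and 3.73-fold lower, and VEGFA, the vascular growth factor, 2.03-fold and 2.62-fold lower.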

How the data were processed

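The authors deposited 1 intensity per probe set for each of 54675 probe sets on 3 arrays, labelled by the Affymetrix procedure per the labels' protocols, by an algorithm not given in the sources used here. Its 2% trimmed mean was 150.0 on each array, so the deposited intensities had been scaled. The 62 control probe sets were left out, and the rest were quantile normalized (Python 3.11.15, numpy 2.4.6, pandas 2.3.3), because the 75th percentiles differed by 0.14 log2 units. Probe sets with 1 gene symbol in the platform annotation (41091) were used; the brightest represented a gene, and 5 of the 36 genes were represented by a cross-hybridising (_x_at) probe set. Paralogues and pseudogenes of GAPDH, PGK1, ENO1, LDHA and others can share signal. Values below the median of non-control probe sets (log2 4.72) were raised to it. A difference with 1 side raised is a lower bound, and genes at least 2-fold apart were counted. The genes and lists were chosen with earlier results of these data known. Genes at least 2-fold apart in any comparison are named with values, with any other measured probe set that opposed the main one by at least 0.3 log2 units on both sides; the other members are named with their differences, and from other lists up to 3 genes of largest difference per comparison. The code that counts genes past 2-fold was tested on simulated data, which says nothing of replicate error. The 11 alternatives covered scaling, floor, probe set choice and size.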

Additional observations from a re-analysis of the deposited data

Results flagged for a closer look

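On their brightest probe sets, HK2 and PKM differed from neuroepithelial cells in opposite directions on the astrocyte arrays. HK2 was -1.10 log2 units for RA and 0.54 for FGF8 astrocytes, and PKM was 1.01 for RA and -0.66 for FGF8. Both comparisons share the neuroepithelial array and each group is 1 array, so the difference was not tested. RA minus FGF8 was -1.65 for HK2 and 1.67 for PKM. For RA minus FGF8 the 2 dimmer HK2 probe sets gave 0.26 and -0.86, and the dimmer PKM probe set -0.14. Against neuroepithelial cells, the first of these HK2 probe sets was 0.86 for RA and 0.60 for FGF8. The second, below the floor in RA astrocytes, was -0.56 and 0.29. The dimmer PKM probe set was -0.35 and -0.20. That PKM probe set and the first HK2 one thus had the same direction on both astrocyte arrays.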

How the results depend on the processing

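No paired analysis was possible because each group had 1 array, and no array could be left out. All 19 calls past 2-fold on named genes kept their direction under each alternative that gave a value, and 6 stayed past 2-fold under every one. Those 6 were for HK1, ALDOC, LDHA, PFKFB3 and PYGL, which have 1 probe set each. Alternatives of probe set could not move them. Those of floor left the bright genes HK1, LDHA, PFKFB3 and PYGL unchanged, so for these the count tests mainly the scaling. ALDOC is dim on both astrocyte arrays, and with the 70th percentile floor it was -1.09 for RA and for FGF8 against neuroepithelial cells. For RA astrocytes minus neuroepithelial cells the main counts were 5 higher and 4 lower. With equal array medians they were 11 and 2, at 1.5-fold 11 and 8, at 4-fold 2 and 1, and with probe sets averaged 3 were higher. The median, -0.08, was 0.074 for deposited values and 0.49 for equal medians. Of all genes, 25.7% were higher and 10.8% lower with equal medians, 29.4% and 24.4% at 1.5-fold, and 6.59% and 5.63% at 4-fold. With probe sets averaged 15.8% of all genes were higher. For FGF8 astrocytes minus neuroepithelial cells the main counts were 1 higher and 3 lower. With equal medians they were 3 and 1, at 1.5-fold 2 and 9, and at 4-fold 0 and 0. With the 70th percentile floor or with probe sets averaged 0 were higher, and without a floor 5 were lower. The median of -0.28 turned to 0.25 with equal medians. Of all genes, 22.1% were higher and 7.20% lower with equal medians, 23.6% and 19.8% at 1.5-fold, and 3.72% and 3.58% at 4-fold. The share higher was 10.9% with the 70th percentile floor and 10.4% with probe sets averaged, and the share lower was 17.7% without a floor. For RA minus FGF8 astrocytes the main counts were 5 higher and 1 lower. At 1.5-fold they were 10 and 2, and at 4-fold 0 and 0. With the 30th percentile floor or no floor 2 were lower, and with probe sets averaged 0 were lower. Without the less specific (_x_at and _s_at) probe sets, where 20 genes were compared, 3 were higher. Of all genes, 19.7% were higher and 16.6% lower at 1.5-fold, and 2.51% and 2.71% at 4-fold. The share lower was 10.5% with the 30th percentile floor, 16.1% with no floor and 8.31% with probe sets averaged. Without the less specific probe sets 9.79% of all genes were higher. Equal array medians moved the share of higher genes among all those past 2-fold from 55.3% to 70.5% for RA and from 55.2% to 75.4% for FGF8. Beyond the construction of each alternative the cause was not tested. ENO1, PKM and PYGL lay within 0.01 log2 units of the 2-fold limit for RA, and PYGL was 0.99 with quantile normalization of the compared arrays only. Without the less specific probe sets PYGB was 0.11 in both RA comparisons, on a probe set near the floor.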

Other observations

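The pentose phosphate pathway, which branches from glycolysis to make NADPH and ribose, was mixed. Of 7 genes compared, 1 was at least 2-fold higher and 2 lower in RA astrocytes than in neuroepithelial cells, and 1 was higher and 0 lower in FGF8 astrocytes. The share past 2-fold was 42.9% for RA and 14.3% for FGF8, against 33.2% and 23.3% of all genes. TALDO1, the transaldolase, had signals of 1873 in RA astrocytes, 4989 in FGF8 astrocytes and 1658 in neuroepithelial cells, 3.01-fold higher for FGF8. RPIA, an isomerase that makes ribose phosphate, was 2.52-fold lower and PGD, an NADPH-making dehydrogenase, 2.45-fold lower in RA astrocytes. H6PD, the related enzyme of the endoplasmic reticulum, was 3.16-fold higher there.

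Of the other glycolysis genes, 1 of 6 was higher and 1 lower past 2-fold for RA and 1 of 7 higher and 1 lower for FGF8 against neuroepithelial cells. That is 33.3% and 28.6% of them, with all genes at 33.2% and 23.3%. GPD1, the cytosolic glycerol phosphate dehydrogenase that joins glycolysis to lipid synthesis, had a signal of 6.93 in RA astrocytes, 223.5 in FGF8 astrocytes and 1.67 in neuroepithelial cells. It was at least 8.48-fold higher in FGF8 astrocytes than on either other array. PCK2, the mitochondrial gluconeogenic carboxykinase, was at least 7.50-fold lower on both astrocyte arrays than in neuroepithelial cells. Among 11 compared regulators of these pathways, 0 were higher and 3 lower (FOXO1, MYC and EPAS1) for RA against neuroepithelial cells. For FGF8 1 was higher (FOXO3) and 1 lower (EPAS1). Those calls are 27.3% of the regulators for RA and 18.2% for FGF8, against 33.2% and 23.3% of all genes. HIF1A was within 2-fold in both, at -0.57 and 0.18. For RA minus FGF8 astrocytes 2 were higher and 3 lower, with MYC 7.25-fold lower. These calls are 45.5% of the regulators, against 17.7% of all genes.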
